A study of Drosophila melanogaster with 24 samples.

Results

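Odorant binding protein (Obp) genes were taken as every protein-coding gene of the fly whose symbol is Obp followed by a digit, which gave 51 members among 13945 protein-coding genes on the assembled chromosomes of dm6. RefSeq describes all 51 as odorant-binding proteins. Chromosome 2R holds 29 of them, 3R holds 12, X holds 6, and 2L and 3L hold 2 each. The members are short, with a median gene length of 788 bp (465 to 10582 bp), against 2166 bp for all genes. Their spans overlap another protein-coding gene in 15 cases, and Obp50b and Obp50c have identical coordinates, so a peak there cannot be given to one gene. The gene lush, whose product is also an odorant binding protein, falls outside the naming rule.

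The marks H3R17me2 (asymmetric dimethylation of an arginine on histone H3) and H3K27me3 (trimethylation of a lysine on the same histone) were mapped by chromatin immunoprecipitation and sequencing (ChIP-seq) in heads of male flies, 25 heads per sample. There were 4 conditions with 2 libraries per mark. They were 40-day-old flies carrying the MB01942 allele in LKRSDH, which encodes the lysine-degrading enzyme lysine ketoglutarate reductase/saccharopine dehydrogenase, 40-day-old w1118 control flies, 3-day-old flies with the same allele, and 3-day-old w1118 control flies. According to the study, MB01942 is an insertion that carries a GFP marker and the mutants were homozygous and had been crossed back to w1118. The 16 deposited lists give the broad peaks that MACS2 called in each library against input chromatin, and the measure used here is the covered share, the percent of a gene body that lies under peaks of a library. The lists hold no read counts, so the depth is unknown and no counting interval can be given. The peaks carry no expression values, so the tissue label could not be checked against head markers. Heads pool many cell types, and a smaller covered share from fewer cells with the mark cannot be told apart from less of the mark per cell.

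Odorant binding proteins are small soluble proteins that support cells secrete into the lymph of sensory hairs, where they bind hydrophobic odorants, pheromones or tastants on the way to receptors on neuronal dendrites. The family grew by tandem duplication, so most members lie in clusters, and several members act outside olfaction, in taste hairs, fat body, glia or seminal fluid. H3K27me3 is laid down by Polycomb repressive complex 2 in broad domains over genes that are kept silent, while asymmetric H3R17me2, made in flies by the arginine methyltransferase Art4, is known as a mark of active genes.

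The 250 bases before the annotated start are shown for 3 members that stand for the patterns described below. Obp99d lies in the strongest H3K27me3 domain of the family. Obp22a had H3K27me3 in 3 of the 40-day-old libraries and in none of the 3-day-old ones, and Obp28a never had this mark. The windows come from the RefSeq sequence of Release 6 (dm6) at chr3R:29714255-29714504 (plus strand), chr2L:1992161-1992410 (minus strand) and chr2L:7497366-7497615 (minus strand), and none overlaps an annotated exon. Capitals mark matches, on either strand, to GAGAG, the core that GAGA factor binds, and to TATAAA, the core of the TATA box. Another motif, GCCAT, the core that Pleiohomeotic binds, was searched in the same way and has no match in these windows.
Obp99d: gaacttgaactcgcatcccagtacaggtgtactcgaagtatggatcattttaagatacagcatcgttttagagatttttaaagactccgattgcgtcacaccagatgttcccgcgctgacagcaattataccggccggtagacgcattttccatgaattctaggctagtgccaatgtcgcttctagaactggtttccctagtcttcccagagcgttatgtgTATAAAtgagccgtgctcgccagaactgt
Obp22a: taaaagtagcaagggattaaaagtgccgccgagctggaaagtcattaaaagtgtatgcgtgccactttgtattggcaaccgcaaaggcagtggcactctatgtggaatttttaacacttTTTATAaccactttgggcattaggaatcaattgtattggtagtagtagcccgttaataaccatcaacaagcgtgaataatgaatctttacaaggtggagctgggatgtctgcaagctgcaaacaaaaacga
Obp28a: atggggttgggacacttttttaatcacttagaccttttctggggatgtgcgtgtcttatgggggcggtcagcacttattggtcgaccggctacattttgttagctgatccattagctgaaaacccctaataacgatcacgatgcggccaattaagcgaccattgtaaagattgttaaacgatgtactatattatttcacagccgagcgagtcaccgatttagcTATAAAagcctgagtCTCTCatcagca

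Positions of matches count back from the annotated start. Obp99d has TATAAA from -29 and Obp28a has it from -27, both on the strand of the gene, and in Obp22a the match from -131 is on the other strand. The GAGAG match of Obp28a starts at -12, on the other strand. Neighbouring matches can share a base. Over all members, 33 of 51 upstream windows (64.7%) hold TATAAA, against 43.0% of the windows of all protein-coding genes, 29 (56.9%) hold GCCAT, against 35.7%, and 9 (17.6%) hold GAGAG, against 25.7%. Some of these windows overlap annotated exons, and a relation between the motifs and the marks was not tested.

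Per library, the lists held 10627 to 17105 peaks of H3R17me2 and 3575 to 6295 of H3K27me3. H3R17me2 peaks covered 21.1 to 47.6 Mb and H3K27me3 peaks 30.7 to 45.4 Mb. Peaks with a MACS2 q-value (the p-value adjusted by the caller) under 0.05 numbered 3 to 130 per H3R17me2 list and 623 to 1967 per H3K27me3 list. The Hox genes, the classical Polycomb targets, were covered by H3K27me3 over 99.0% ± 0.178 of their bodies (SD, n = 8 libraries) and cytosolic ribosomal protein genes over 3.27% ± 0.584, while the same means for H3R17me2 were 49.6% ± 15.5 and 14.8% ± 9.02. Genes of the X chromosome were nearly free of H3R17me2 peaks, with a mean covered share of 0.390%. In each of the 4 conditions, replicate 2 of H3R17me2 covered more of the genes than replicate 1 and held fewer peaks with a q-value under 0.05 (3 to 5, against 18 to 130). The study's methods call the 2 libraries of a condition biological replicates and give the rearing conditions and the time of head collection (ZT8). The sources used here do not say whether the flies of the 2 libraries were reared or collected apart.

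Obp genes were covered by H3K27me3 over a mean of 48.6% ± 15.0 of the gene body (SD, n = 8 libraries, range 28.1% to 66.7%), against 21.0% ± 4.03 for all protein-coding genes. Every library had a higher mean over the members than over all genes. The 45 autosomal members averaged 54.7%, against 24.0% for all autosomal genes and 27.7% for autosomal genes of 400 to 2000 bp, the length class of most members. Other chemosensory families were covered to a like degree, with 54.4% over 59 odorant receptor (Or) genes, 36.1% over 60 gustatory receptor (Gr) genes and 43.7% over 60 ionotropic receptor (Ir) genes. H3R17me2 covered 32.6% ± 11.9 of the members (SD, n = 8, range 15.9% to 47.9%), against 29.6% ± 8.19 of all genes, a difference smaller than the spread between libraries. Autosomal members averaged 37.0% and all autosomal genes 35.1%.

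**Figure D1:**
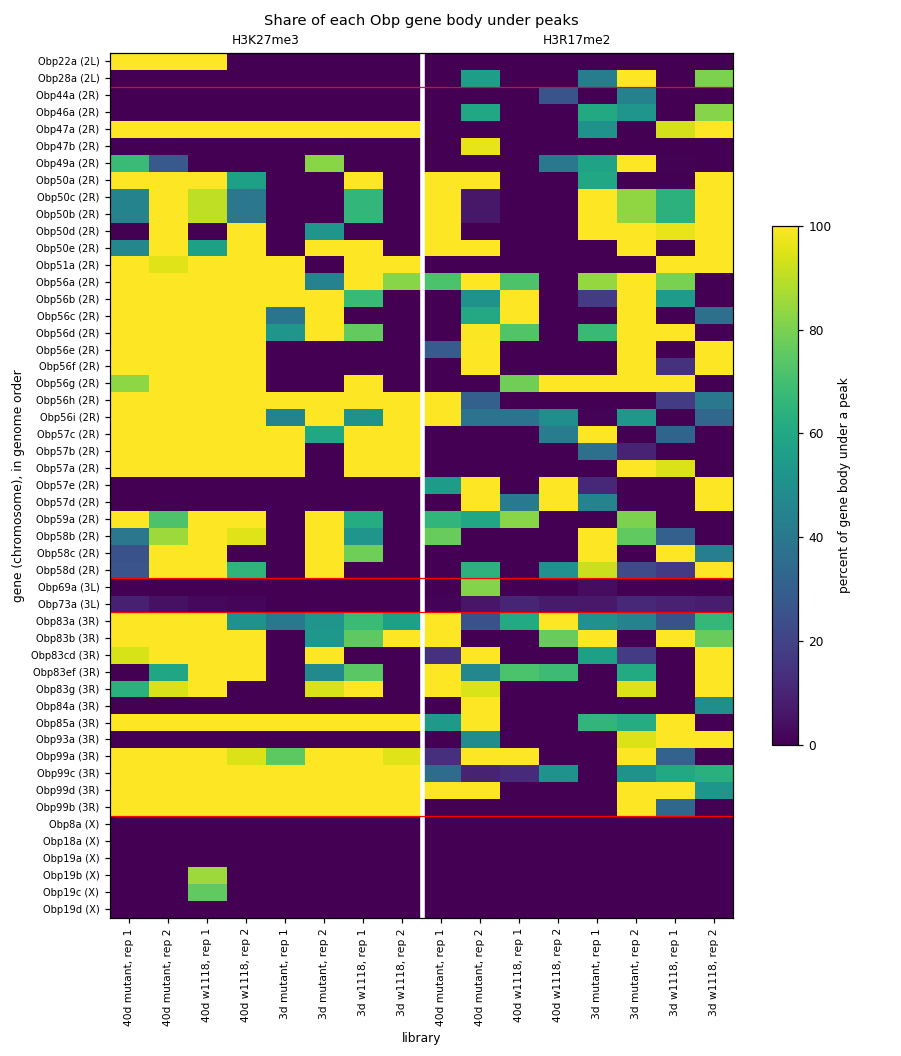
Percent of each Obp gene body under peaks (colour, 0 to 100) for the 51 members in genome order (rows, with red lines between chromosomes) and the 16 libraries (columns, H3K27me3 on the left and H3R17me2 on the right). Rows of Obp47a, Obp56h, Obp85a, Obp99c, Obp99d and Obp99b are full in all 8 H3K27me3 libraries, the rows of Obp56e and Obp56f are full in the 4 40-day-old and empty in the 4 3-day-old H3K27me3 libraries, and the 6 X-linked members are empty in all H3R17me2 libraries.

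The members split widely under H3K27me3. Over the 8 libraries, 8 members (15.7%) had at least 50% of the body covered in every library, against 11.4% of all genes, and 13 members (25.5%) were at 0 in every library, against 59.0% of all genes. Of the rest, 27 members were at 0 in some libraries and covered in others, and 3 (Obp56a, Obp56i and Obp83a) were covered in part or in full in all 8, with lowest values of 44.1%, 44.7% and 40.4%. The median member was covered over 50.4% and the median gene of all over 0%. Under H3R17me2 no member reached 50% in all 8 libraries (0 of 51), against 0.0932% of all genes, and 7 members (13.7%) were at 0 throughout, the 6 X-linked ones and Obp22a, against 2226 of all 13945 genes.

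At least 90% of the body was under H3K27me3 in all 8 libraries for 6 members, Obp47a, Obp56h, Obp85a, Obp99c, Obp99d and Obp99b (11.8%, against 7.05% of all genes), and each of them was at 100% throughout. Obp99b is known from the fat body of the head, and knockdown of Obp56h in males is known to alter cuticular hydrocarbons and mating. The 3 genes at 99 share 1 peak of 38.2 to 39.3 kb in every library. It spans Obp99c, dmrt99B (a DM-domain transcription factor gene), Obp99d, Dup99B (a seminal peptide gene of the ejaculatory duct) and Obp99b, and its ends moved by 0.687 and 0.353 kb at most. In 3-day-old mutant replicate 1 it lay at chr3R:29683445-29722592. The neighbouring member Obp99a, outside that peak, was covered over 94.8% to 100% in the 40-day-old libraries and 74.9% to 100% in the 3-day-old ones.

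The enrichment of the Obp99 domain stood apart from that of the other members. Its fold enrichment over input was 2.51 and 3.27 in 40-day-old mutant libraries, 2.28 and 2.42 in 40-day-old w1118 libraries, 4.36 and 3.05 in 3-day-old mutant libraries and 3.44 and 4.71 in 3-day-old w1118 libraries. Thus 3 of the 4 40-day-old values lay below all 3-day-old values, and 40-day-old mutant replicate 2 lay within their range. The mean was 2.62 ± 0.443 at 40 days and 3.89 ± 0.774 at 3 days (SD, n = 4 each), each fold being relative to the input of its own list, and the difference was not tested. Its -log10 q ranged from 7.71 to 57.8, and by fold enrichment it was among the first 66 peaks of every list.

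**Figure D2:**
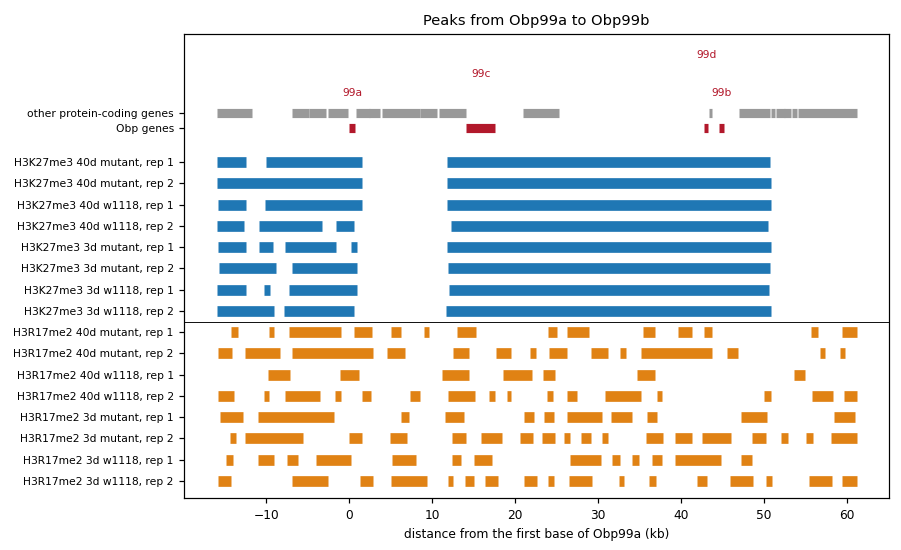
H3K27me3 peaks (blue) and H3R17me2 peaks (orange) in the 16 libraries from Obp99a to Obp99b, against distance from the first base of Obp99a in kb, with Obp genes (red) and other protein-coding genes (grey) above. The H3K27me3 peak over Obp99c, Obp99d and Obp99b is 38.2 to 39.3 kb long in all 8 libraries, while the H3R17me2 peaks are short and differ from library to library.

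Of the other members with at least 50% covered in every library, Obp85a, Obp57c, Obp47a and Obp56h lay in weaker peaks whose lengths varied more. The peak at Obp85a (chr3R:8419822-8420597) measured 28.3 to 105 kb, began within 0.193 kb of the same place in all 8 libraries and in 3 of them also held Or85b and Or85c, a pair of odorant receptor genes. The peak at Obp57c measured 55.3 to 106 kb, that at Obp47a 12.4 to 48.0 kb and that at Obp56h 22.0 to 76.4 kb. Their fold enrichments ranged from 1.47 to 1.87, below every value of the Obp99 domain. A q-value under 0.05 was reached in all 8 libraries at Obp47a and Obp57c and in 5 of 8 at Obp56h and Obp85a.

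The 13 members without H3K27me3 in any library were Obp8a, Obp18a, Obp19a and Obp19d on X and Obp28a, Obp44a, Obp46a, Obp47b, Obp57d, Obp57e, Obp69a, Obp84a and Obp93a on autosomes. They include Obp28a, one of the most abundant proteins of the antenna, and Obp44a, known from astrocyte-like glia. X-linked genes as a whole were covered over 4.94%, and 84.1% of them were at 0 in all 8 libraries. Some of the 13 lay close to a peak and others far from any. The nearest H3K27me3 peak was 24.7 to 53.3 kb away from Obp44a and 30.6 to 47.6 kb from Obp93a, but 0.141 to 6.70 kb from Obp57e.

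Under all listed peaks, the mean H3K27me3 share of the Obp genes was larger at 40 days in both genotypes. In w1118, the mean over the members was 66.7% and 55.8% at 40 days, against 45.8% and 28.1% at 3 days. The ages did not overlap, and the difference of the means was 24.3 percentage points, against 6.58 for all protein-coding genes and 9.49 for autosomal genes of 400 to 2000 bp. Without 3-day-old w1118 replicate 2 it was 15.4 points. The same difference was 13.5 points for Or, 22.8 for Gr and 14.6 for Ir genes, so the value of the Obp genes lay above those of the receptor families. In the mutant, the means were 55.8% and 65.5% at 40 days and 28.5% and 42.8% at 3 days, again without overlap. That difference was 25.0 points, against 7.43 for all genes, 22.6 for Or, 18.6 for Gr and 23.9 for Ir genes. By the mean of their libraries, 25 members were higher at 40 days, 25 unchanged and 1 lower in w1118, and 29, 22 and 0 in the mutant. These values take every listed peak, and with only peaks of a q-value under 0.05 the difference in w1118 was -4.29 points, the opposite direction. In the mutant the means with such peaks were 17.6% and 55.4% at 40 days and 19.3% and 10.0% at 3 days, so the ages overlapped.

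The permutation of 2 libraries against 2 cannot give an exact two-sided p below 0.333, so members whose libraries did not overlap were counted beside the same count over all genes. In w1118, both 40-day-old libraries were above both 3-day-old ones for 11 of 51 members (21.6%), against 11.8% of all genes, and the opposite order was found for 0 members, against 1.56%. In the mutant, the count was 10 members (19.6%), against 12.6% of all genes, and 0 in the opposite order, against 0.588%. Members of 1 cluster share peaks and are not independent, and Obp50b and Obp50c, which the mutant count includes, are 1 place counted as 2 members.

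Obp56e and Obp56f, which encode seminal fluid proteins, were in both counts. Each was covered over 100% in all 4 40-day-old libraries and 0% in all 4 3-day-old libraries. The only other member whose 4 40-day-old libraries all lay above the 4 3-day-old ones was Obp73a, at 8.64% and 4.59% in 40-day-old mutant, 2.15% and 1.61% in 40-day-old w1118 and 0% in every 3-day-old library. It is the longest member, so those shares stand for short stretches. Full separation was thus seen for 3 members (5.88%), against 5.46% of all genes, and the opposite for 0, against 0.129%. Each had p = 0.0286, the smallest that an exact two-sided permutation test of 4 libraries against 4 allows, and an adjusted p = 0.209 over the 5711 genes with any H3K27me3, so 0 members and 0 genes (0%) were called. The count was 8 without 3-day-old mutant replicate 2, 7 without 3-day-old w1118 replicate 1 and 5 without 40-day-old w1118 replicate 2. Fewer libraries are easier to separate for any gene, and the same counts were not made over all genes. These counts can therefore not be set against the 5.46%.

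The peaks at Obp56e and Obp56f had low enrichment. In 40-day-old libraries the peak over both genes measured 39.5 and 3.86 kb in the mutant and 22.0 and 8.93 kb in w1118. Its fold enrichment was 1.34 to 1.45 and its -log10 q 0.838 to 1.03, so none had a q-value under 0.05. In the 3-day-old libraries the nearest peak ended 4.06 and 2.98 kb away from Obp56e in the mutant and 5.71 and 3.15 kb away in w1118. Over the whole cluster from Obp56a to Obp56f, 16254 bp long with no other protein-coding gene, H3K27me3 covered 100% and 77.0% in 40-day-old mutant, 100% and 86.5% in 40-day-old w1118, 33.3% and 58.8% in 3-day-old mutant and 28.6% and 11.4% in 3-day-old w1118. The 4 40-day-old values all lay above the 4 3-day-old values.

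**Figure D3:**
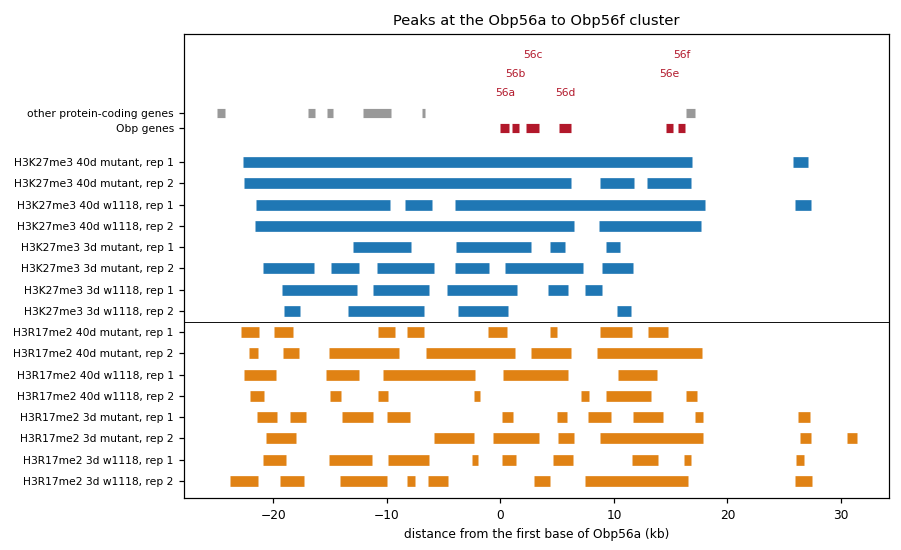
H3K27me3 peaks (blue) and H3R17me2 peaks (orange) in the 16 libraries around the Obp56a to Obp56f cluster, against distance from the first base of Obp56a in kb, with Obp genes (red) and other protein-coding genes (grey) above. In the 4 40-day-old H3K27me3 libraries a peak reaches Obp56e and Obp56f, and in the 4 3-day-old libraries none does.

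Of the members that did not overlap with age in w1118 alone, Obp56c and Obp83cd had the largest differences. Obp56c had 100% in both 40-day-old w1118 libraries and 0% in both 3-day-old ones, and Obp83cd, whose product has 2 odorant-binding domains, had the same values. In mutant libraries both genes overlapped or were already covered at 3 days, with 100% and 100% at 40 days and 38.8% and 100% at 3 days for Obp56c, and 94.1% and 100% at 40 days and 0% and 100% at 3 days for Obp83cd. Whether the ages differ more in one genotype than in the other was not tested for these genes. In the mutant alone, Obp22a and Obp50a went the same way, each with 100% in both 40-day-old and 0% in both 3-day-old libraries. In w1118, Obp22a had 100% and 0% at 40 days and 0% in both 3-day-old libraries, and Obp50a had 100% and 57.0% at 40 days and 100% and 0% at 3 days.

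**Figure D4:**
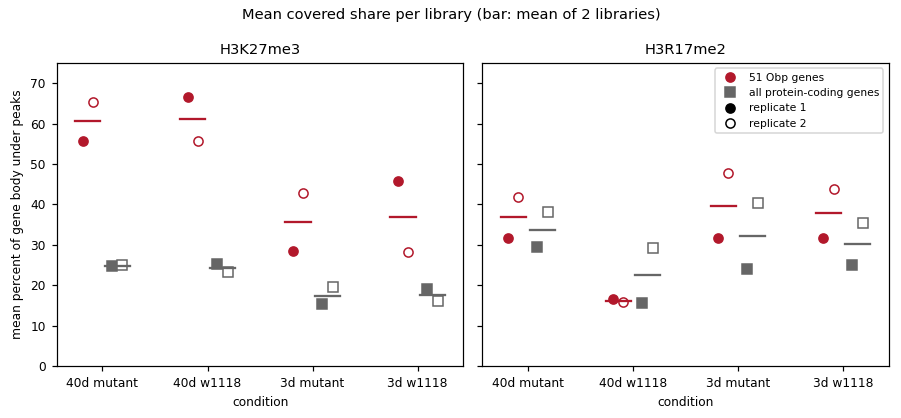
Mean percent of the gene body under peaks of H3K27me3 (left) and H3R17me2 (right) over the 51 Obp genes (red circles) and all protein-coding genes (grey squares), for 4 conditions. Filled symbols are replicate 1, open symbols replicate 2, and bars the mean of 2 libraries. For H3K27me3 the Obp means are 55.8% to 66.7% at 40 days and 28.1% to 45.8% at 3 days, and for H3R17me2 the 40-day-old w1118 means are 16.5% and 15.9%.

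Grouped into 10 clusters, with neighbours at most 20 kb apart, 33 members fell together. The H3K27me3 share of the Obp99d to Obp99b cluster was 100% in every library and that of the Obp57e to Obp57d cluster 0% in every library. The Obp57c to Obp57a cluster was at 100% in 7 libraries and under 20% in 3-day-old mutant replicate 2. The Obp83a to Obp83b cluster, a pair of antennal genes, had 100% and 100% in 40-day-old mutant, 100% and 67.9% in 40-day-old w1118, 26.8% and 41.9% in 3-day-old mutant and 55.5% and 71.3% in 3-day-old w1118. Its ages overlapped through the w1118 libraries. The Obp59a to Obp58d cluster, the Obp50a to Obp50e cluster and the Obp83cd to Obp83g cluster also overlapped between ages, with values from 0% up to 100% at 3 days or 40 days. The Obp99a to Obp99c cluster, with 5 other genes, stayed between 33.7% and 42.3%, and the Obp19a to Obp19d cluster on X was at 0% except for 34.7% in 40-day-old w1118 replicate 1.

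The members with a known role are described by list, with no test between lists. The 7 seminal fluid genes, which are expressed in male reproductive organs, averaged 81.4% at 40 days and 24.8% at 3 days. Of these, Obp51a was covered over 95.3% to 100% at 40 days and in 3 of 4 libraries at 3 days, Obp56g over 82.9% to 100% at 40 days and in 1 of 4 libraries at 3 days, Obp56i over 100% at 40 days and 44.7% to 100% at 3 days, and X-linked Obp8a never. Of the 2 genes known from glia or fat body, Obp44a was at 0 and Obp99b at 100% in every library. Both 2-domain genes, Obp83cd and Obp83ef, averaged 81.6% at 40 days and 27.8% at 3 days. The 8 antennal genes averaged 47.6% at 40 days and 26.1% at 3 days, and 4 of them, Obp19a, Obp28a, Obp69a and Obp84a, were at 0 in every library. The covered antennal genes were Obp56d, Obp59a (known from hygrosensation), Obp83a and Obp83b, with means over the 8 libraries of 66.7% to 78.6%. The 3 taste genes averaged 7.99% at 40 days and 6.85% at 3 days. Of these, Obp57d and Obp57e, known for the response to host plant acids, were at 0 throughout, and Obp49a, known for the suppression of sweet taste by bitter compounds, had 68.0% and 27.9% in 40-day-old mutant, 0% in both 40-day-old w1118, 0% and 82.2% in 3-day-old mutant and 0% in both 3-day-old w1118 libraries.

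Between genotypes, the H3K27me3 share of the Obp genes under all listed peaks differed by less than the spread between libraries. At 40 days the mean over members was 55.8% and 65.5% in the mutant and 66.7% and 55.8% in w1118, a difference of -0.618 percentage points, against 0.657 for all genes. At 3 days it was 28.5% and 42.8% in the mutant and 45.8% and 28.1% in w1118, a difference of -1.32 points, against -0.184 for all genes. The replicate numbers gave opposite signs in both cases, with -10.9 and 9.67 points at 40 days and -17.4 and 14.7 points at 3 days. Without 40-day-old mutant replicate 1 or 40-day-old w1118 replicate 1 the 40-day difference was 4.22 and 4.83 points, and without 3-day-old mutant replicate 1 or 3-day-old w1118 replicate 1 the 3-day difference was 5.88 and 7.53 points. The 40-day difference was 6.63 points with equal numbers of peaks and 18.5 points with peaks of a q-value under 0.05 only, where 40-day-old mutant replicate 2 held the most such peaks of any list.

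Few members were separated between genotypes. At 40 days 2 members (3.92%) were higher in both mutant libraries, against 4.34% of all genes, and 2 were lower, against 2.95%. Obp83ef had 0% and 59.0% in the mutant and 100% in both w1118 libraries, the largest such difference, and Obp58b had 39.6% and 85.5% in the mutant and 100% and 95.3% in w1118. The 2 higher ones were Obp49a and Obp73a. At 3 days 2 members were higher in both mutant libraries, against 2.01% of all genes, and 2 were lower, against 3.08%. Obp56b had 100% in both mutant libraries and 67.8% and 0% in w1118, Obp56c had 38.8% and 100% in the mutant and 0% in both w1118 libraries, and the antennal gene Obp83b had 0% and 53.4% in the mutant and 75.2% and 100% in w1118. These counts were near those over all genes. Over both ages together, 0 members were fully separated by genotype in either direction, against 0.1% of all genes higher and 0.0717% lower, and 0 genes (0%) passed an adjusted p of 0.05 in the exact permutation test. The smallest p of that exact permutation test is 0.0286. Of the 5711 genes with any H3K27me3, 24 had an unadjusted p under 0.05, too few for any to pass.

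H3R17me2 at the Obp genes was lowest in 40-day-old w1118 heads. There the mean over the members was 16.5% and 15.9%, and in 3-day-old w1118 heads it was 31.8% and 43.8%. The ages did not overlap, and the difference was -21.6 percentage points, against -7.76 for all genes, -16.1 for Or, -14.0 for Gr and -20.0 for Ir genes. In 40-day-old w1118 replicate 1, the shortest list of the mark, all genes were also low at 15.6%, but in replicate 2 they were at 29.3%. With equal numbers of peaks taken from every list, the means over members were 16.5% and 15.2% at 40 days and 23.7% and 40.1% at 3 days. With only peaks of a q-value under 0.05 they were all 0%. Both 40-day-old libraries were below both 3-day-old ones for 12 members (23.5%), against 15.5% of all genes, and above them for 1 member (1.96%), against 5.1%. The 12 include Obp50b and Obp50c, which have identical coordinates. Among the 12, Obp51a and Obp93a had 0% in both 40-day-old and 100% in both 3-day-old w1118 libraries, and Obp50d had 0% in both 40-day-old and 96.6% and 100% in both 3-day-old libraries. The 1 higher member was Obp56i, with 37.9% and 49.8% at 40 days and 0% and 33.1% at 3 days.

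In the mutant, H3R17me2 at the members differed little with age as a mean. It was 31.7% and 42.0% at 40 days and 31.6% and 47.9% at 3 days, a difference of -2.89 points that lay within the spread of the libraries, against 1.64 for all genes. It was 2.24 points without 40-day-old mutant replicate 1 and 5.26 without 3-day-old mutant replicate 2. Both 40-day-old libraries were above both 3-day-old ones for 4 members (7.84%), against 12.3% of all genes, and below them for 4, against 8.3%. The largest differences were at Obp56g, with 0% in both 40-day-old and 100% in both 3-day-old libraries, at Obp49a, with 0% at 40 days in both replicates, against 57.5% and 100% at 3 days, and at Obp57e, with 55.0% and 100% at 40 days and 11.1% and 0% at 3 days.

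Between genotypes, H3R17me2 at the members was higher in the mutant at 40 days. The mean was 31.7% and 42.0% in the 40-day-old mutant and 16.5% and 15.9% in 40-day-old w1118, without overlap, a difference of 20.6 points against 11.3 for all genes, 15.2 for Or, 24.6 for Gr and 18.9 for Ir genes. This comparison shares the 40-day-old w1118 libraries with the age comparison in w1118. With equal numbers of peaks taken from every list the difference was 12.3 points, and with only peaks of a q-value under 0.05 no member was covered by H3R17me2 in any library. Both mutant libraries were above both w1118 libraries for 10 members (19.6%), against 18.9% of all genes, and below them for 2 (3.92%), against 3.76%, so the counts were near those over all genes. The 10 include Obp50b and Obp50c, which have identical coordinates. Obp50a, Obp50e and Obp99d each had 100% in both 40-day-old mutant libraries and 0% in both 40-day-old w1118 libraries.

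At 3 days the H3R17me2 means of the genotypes overlapped, with 31.6% and 47.9% in the mutant and 31.8% and 43.8% in w1118, a difference of 1.95 points against 1.91 for all genes. It was -6.20 points without 3-day-old mutant replicate 2 and -4.05 without 3-day-old w1118 replicate 1. Both mutant libraries were above both w1118 libraries for 4 members, against 9.72% of all genes, and below them for 5 (9.8%), against 9.32%. Obp51a had 0% in both mutant and 100% in both w1118 libraries, Obp49a had 57.5% and 100% in the mutant and 0.669% and 0% in w1118, and Obp58b had 100% and 75.4% in the mutant and 30.8% and 0% in w1118. Over both genotypes together, 0 members were fully separated by age, against 0.459% of all genes higher and 1.13% lower at 40 days. Over both ages, 0 members were fully separated by genotype, against 1.32% of all genes higher and 0.237% lower in the mutant. In both tests 0 genes (0%) passed an adjusted p of 0.05 (exact permutation test of 4 libraries against 4). The smallest p of that exact permutation test is 0.0286. Of the 11719 genes with any H3R17me2, 222 by age and 217 by genotype had an unadjusted p under 0.05, too few for any to pass.

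The marks were set against each other per gene over 8 libraries each, with the exact two-sided permutation test and adjustment over the 12018 genes that either mark covered in any library. Of the 47 members tested, 9 (19.1%) had less H3R17me2 than H3K27me3 at an adjusted p under 0.05, against 10.2% of all genes, and 1 (2.13%) had more, against 25.4%. The share with less was 19.6% of Or, 9.26% of Gr and 18.6% of Ir genes, so Or and Ir genes were near the members. The share with more was 7.84% of Or, 18.5% of Gr and 13.6% of Ir genes. The other 4 members, Obp8a, Obp18a, Obp19a and Obp19d, were at 0 in all 16 libraries. The 9 were Obp47a, Obp56h, Obp56i, Obp57a, Obp57b, Obp57c, Obp85a, Obp99b and Obp99c, and so include 5 of the 6 members that were always under H3K27me3. At those 6, with 100% H3K27me3 in every library, H3R17me2 could only be equal or lower. The sixth, Obp99d, had 56.6% ± 49.5 H3R17me2 and 100% H3K27me3 (SD, n = 8 each) and was not called.

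At Obp99c, H3R17me2 covered 35.5% and 9.45% in 40-day-old mutant, 12.2% and 51.5% in 40-day-old w1118, 0% and 50.9% in 3-day-old mutant and 60.7% and 63.6% in 3-day-old w1118, while H3K27me3 covered 100% in all 8 libraries. The marks did not overlap there, with a difference of -64.5 points and p = 0.000155, the smallest that an exact test of 8 against 8 allows (adjusted p = 0.00146). At Obp99b the H3R17me2 share was 0% in 6 libraries, 100% in 3-day-old mutant replicate 2 and 33.9% in 3-day-old w1118 replicate 1, and the difference was -83.3 points (exact permutation test, adjusted p = 0.00644). At Obp57b it was above 0 only in the 3-day-old mutant, at 36.8% and 9.59%, with a difference of -81.7 points (exact permutation test, adjusted p = 0.00644). The other 6 differed by -47.9 to -76.5 points. The 1 member with more H3R17me2 was Obp73a, at 7.49% ± 3.17 H3R17me2 and 2.12% ± 3.09 H3K27me3 (SD, n = 8 each; exact permutation test, adjusted p = 0.0208). Its difference was -0.57 points among peaks with a q-value under 0.05, where no member had any H3R17me2.

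**Figure D5:**
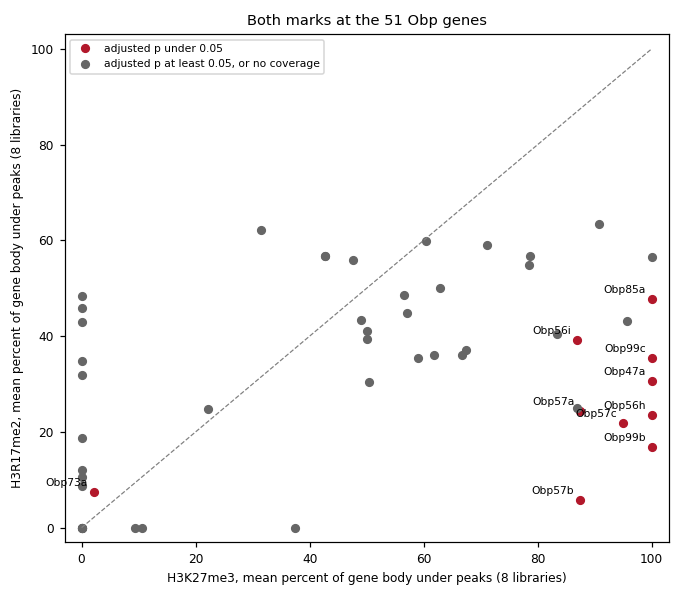
Mean percent of the gene body under H3R17me2 peaks (vertical axis) against that under H3K27me3 peaks (horizontal axis) for the 51 Obp genes, each over 8 libraries, with the line of equality dashed. Red points are the 10 members with an adjusted p under 0.05 in the exact permutation test, of which 9 lie below the line and Obp73a above it, and grey points are the other members.

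The calls between marks depended on the test, the libraries and the peaks used. With a replicate block, which permutes the marks within condition and replicate number, 0 members were called, and their smallest adjusted p was 0.0595 (exact permutation test). Over 8 pairs that exact permutation test cannot give a p below 0.00781. Obp99c, with less H3R17me2 in all 8 pairs, was at that limit and was still not called. With 1 kb on either side of the genes 19 members were called, 12 with less H3R17me2 than H3K27me3 and 7 with more. With peaks of a q-value under 0.05 only, 8 members were called, 6 of them among the 10. H3R17me2 was then at 0 for every member in every library, so only less H3R17me2 than H3K27me3 could be found. The count was 16 without H3R17me2 3-day-old w1118 replicate 1 and also 16 without H3R17me2 40-day-old w1118 replicate 1. Under these settings the share of all genes called was not counted, so whether the changes are particular to the members is unknown. Obp57a, covered by H3K27me3 over 100% in 7 libraries and 0% in 3-day-old mutant replicate 2, had adjusted p-values just over the threshold (0.0514 to 0.0524) when any of the 7 was left out. The antibodies, the number of peaks and their lengths differ between marks, so the difference in covered share is one between lists and not between amounts of the modified histone.

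The peaks behind these shares differed in strength. H3R17me2 peaks met members in 191 pairs of a member and a library, with fold enrichments of 1.26 to 1.67, a median length of 2.92 kb and a -log10 q of at most 0.231, so 0 pairs had a q-value under 0.05. H3K27me3 peaks met members in 222 such pairs, with fold enrichments of 1.27 to 4.71, a median length of 17.7 kb against 2.57 kb for all peaks, and 99 pairs with a q-value under 0.05. Over the 51 members, the correlation between the 2 libraries of a condition was 0.161 in 40-day-old mutant, 0.241 in 40-day-old w1118, 0.0823 in 3-day-old mutant and 0.0827 in 3-day-old w1118 for H3R17me2. For H3K27me3 it was 0.837 in 40-day-old mutant, 0.729 in 40-day-old w1118, 0.415 in 3-day-old mutant and 0.679 in 3-day-old w1118. These values are across genes that share peaks and are no replicates of each other. Of the members covered over at least 50% by H3R17me2 in either library of a condition, 21.4% to 31.0% were so in both, and by H3K27me3 37.0% to 77.8%, so H3R17me2 peaks mostly lay at other members in the second library.

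At a q-value under 0.05 the age comparison of H3K27me3 took another form. The mean over members in w1118 was then 15.7% and 20.4% at 40 days and 22.3% and 22.4% at 3 days, a difference of -4.29 points in the opposite direction. In the mutant it was 17.6% and 55.4% at 40 days and 19.3% and 10.0% at 3 days, so that 40-day-old mutant replicate 2 alone stood far above the others. That list holds 1967 peaks of this strength, the most of any, and the 40-day-old lists with the fewest held 623 and 757. Among peaks of this strength, the larger share at 40 days was thus not seen in w1118 and was seen in 1 of the 2 mutant libraries.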

How the data were processed

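Reads were trimmed by the authors and aligned to dm6, Picard was used to drop duplicates, and broad peaks were called for each library against input. The submitters' processing notes name Trim Galore 0.6.0, Bowtie2 2.5.1, SAMtools 1.19 and MACS2 2.2.7.1, and no listed peak had a p-value above 0.0997. The deposited lists give peak coordinates, a score, the fold enrichment (a ratio to input), and the -log10 p and -log10 q-value, which the authors computed with MACS2 over each region. The score was not used. They hold no counts, so depth and precision are unknown. Input libraries were not analysed here.

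Lists were matched to samples by the names of their peaks, which, in the 4 lists for H3K27me3 at 3 days, hold the parts of the sample description in another order. Overlapping peaks of a list were merged, and the covered share was computed for all 13945 protein-coding genes of Ensembl release 115 (BDGP6) on chromosomes X, 2L, 2R, 3L, 3R and 4, with Python 3.11.15, NumPy 2.4.6, pandas 2.3.3 and matplotlib 3.10.9. Groups were compared by exact two-sided permutation tests per gene, adjusted by the Benjamini-Hochberg method over all genes covered in at least 1 library of the test. Means over members have no test. With 2 libraries per group, members without overlap were counted beside all genes. Clusters joined members at most 20 kb apart. Genes named with values were up to 3 members (ties kept) per mark and comparison with the largest difference among those without overlap, members always or never under H3K27me3, the ends of clusters, and the role lists. The members and lists were chosen with earlier results of these data known. Alternatives were peaks with a q-value under 0.05, 1 kb added on either side of the gene, equal numbers of peaks per list, a replicate block and leaving out each library. Leaving out libraries in the tests of 4 against 4 was added after seeing the data. The scripts were tested on simulated data.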

Additional observations from a re-analysis of the deposited data

Results flagged for a closer look

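H3R17me2 at Obp56h moved in opposite directions with age in the 2 genotypes. It covered 100% and 30.6% of the gene in 40-day-old mutant libraries and 0% in both 3-day-old mutant libraries, a difference of 65.3 percentage points. In w1118 the values were 0% at 40 days in both replicates, against 17.7% and 39.9% at 3 days, a difference of -28.8 points. As the same 8 values give both contrasts, the difference between genotypes was 65.3 points at 40 days and -28.8 points at 3 days. The difference between these effects was not tested. The peaks there had no q-value under 0.05. Obp56h was found by searching all 51 members, both marks and both pairs of comparisons for such opposite directions. The same search was not made over all genes, so this member has no share to be set against. For H3R17me2, both 40-day-old libraries lay above both 3-day-old ones in the mutant for 12.3% of all genes. In w1118 they lay below them for 15.5%.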

How the results depend on the processing

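With peaks of a q-value under 0.05 only, the mean covered share of the Obp genes was 22.9% for H3K27me3 and 0% for H3R17me2. The H3K27me3 difference with age in w1118 was then -4.29 points and that between genotypes at 40 days 18.5 points, 0 members were fully separated by age, and the H3R17me2 differences with age in w1118 and between genotypes at 40 days were 0 points. H3R17me2 minus H3K27me3 at Obp73a was -0.57 points, with H3R17me2 at 0 for every member. With equal numbers of peaks (3575 for H3K27me3 and 10627 for H3R17me2), the genotype difference of H3R17me2 at 40 days was 12.3 points. With 1 kb on either side of the genes, 19 members were called between marks. The deviations of libraries with the same replicate number correlated over genes at -0.168 to 0.0724 within a mark and at -0.00274 to 0.0284 between marks, so the numbers were not taken to pair libraries, although replicate 2 of H3R17me2 had the larger covered share of all genes in each of the 4 conditions. With a replicate block, 5 members differed with age in 1 direction in all 4 pairs of the same genotype and replicate number under H3K27me3. This is not full separation, and of these members Obp50b and Obp50c overlapped between ages. Their p = 0.125 was the smallest the exact permutation test then allows. Between marks, the block gave 0 called members and a smallest adjusted p of 0.0595, where the exact permutation test cannot give a p below 0.00781. Leaving out 1 library at a time gave 46.0% to 51.5% for the H3K27me3 mean and 30.5% to 35.0% for the H3R17me2 mean. The H3K27me3 differences were then 15.4 to 33.1 points (age in w1118), 17.8 to 32.2 (age in the mutant), -6.07 to 4.83 (genotype at 40 days) and -10.2 to 7.53 (genotype at 3 days). Those of H3R17me2 were -27.6 to -15.6 (age in w1118), -11.0 to 5.26 (age in the mutant), 15.5 to 25.8 (genotype at 40 days) and -6.20 to 10.1 (genotype at 3 days). The members fully separated numbered 3 to 8 by age and 0 to 1 by genotype under H3K27me3, and 0 to 3 by age and 0 to 1 by genotype under H3R17me2, and 9 to 16 were called between marks. Under these alternatives the counts of members were not made over all genes, so they have no share to be set against. The causes of these changes were not tested.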
